A study of Mus musculus with 7 samples.

Results

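The Ras and ERK pathway components described here are 7 genes: Rasgrp1, Rasgrp2, Sos1, Grb2, Nras, Map2k1 and Mapk3. They were taken as every non-control probe whose gene name in the scanner files equals one of these symbols, which gave 13 of the 55681 non-control probes. The probe for Sos1 was not well above background on any array, so 12 probes of 6 genes could be read. Those 6 genes are among the 14837 genes tested.

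RNA came from mouse CD8 T lymphocytes of the lymph node, hybridised to 1-colour microarrays. The cells carried the OT-1het T cell receptor transgene on a Rag-/- background. All samples had been cultured for 24 h with 100 nM SIINFEKL, the ovalbumin peptide that OT-1 recognises. Of the 7 samples, 4 are labelled WT and 3 Lck-/-, and the series states that the replicates of each group are biological. The Lck-/- animals also carried a knocked-in Lck whose expression depended on dietary doxycycline, and doxycycline had been withdrawn for 7 days. No feeding or withdrawal is given for WT, so the construct, the diet and the loss of Lck cannot be told apart. The ages of the animals and a sort of the cultured lymphocytes are not given in the sources used here.

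When the T cell receptor is engaged, signalling through Lck and then ZAP70 leads to phosphorylation of the adaptor LAT, which gathers a pair of routes to Ras. One is phospholipase C-gamma, whose product diacylglycerol recruits the exchange factor RasGRP1, and the other is Grb2, which brings SOS. Loaded Ras starts the kinase relay of RAF, MEK and ERK, which ends in transcription of immediate early genes and of feedback regulators. These steps run through phosphorylation and nucleotide exchange, which an expression array does not measure.

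Arrays are named here by their labels. The Lck probe did not follow them: it read 7.44, 7.67, 7.355 and 6.04 on WT 1 to WT 4. On Lck-/- 1 to Lck-/- 3 it read 8.02, 6.21 and 6.17. Lck-/- 1 was the highest of the 7 and lay with WT 1 to WT 3. WT 4 was the lowest and lay with Lck-/- 2 and Lck-/- 3. Which stretch of Lck was deleted is not stated, and a probe outside it would check nothing. Differences are therefore also given without WT 4 and Lck-/- 1 together, and 0 of the 6 genes passed the threshold either way. The share of spots well above background ran from 46.6% to 61.1% of an array, with the most on Lck-/- 1. Spots with an outlier mark were most frequent on WT 3, at 1549. On the other arrays they ran from 166 on WT 2 to 557 on Lck-/- 1. All 8 T cell markers could be read, 7 of them on every array. Of these 8, 7 had a positive difference and 1, Cd5, a negative one, with a median of 0.29. Thy1 differed by 0.58 (SE 0.17) with no overlap, where 5.10% of all genes were higher without overlap. Cd5 differed by -0.41 (SE 0.41). It read 7.31, 7.58, 7.10 and 6.65 on WT 1 to WT 4 and 7.75, 6.48 and 6.01 on Lck-/- 1 to Lck-/- 3. Its lowest arrays were WT 4, Lck-/- 2 and Lck-/- 3, as for the Lck probe. The sum of the 10 NK cell markers was mostly Nkg7, which CD8 T cells also express. Without Nkg7, the 8 with a value on every array summed to 1.77, 2.62, 1.89 and 9.05 on WT 1 to WT 4 and to 4.25, 13.4 and 4.46 on Lck-/- 1 to Lck-/- 3, in multiples of the 75th percentile of an array. WT 4 stood above the other WT arrays and Lck-/- 2 above all. With this scaling all 10 had positive differences, with a median of 1.06 on the log2 scale, and none passed the test. Of 8 myeloid and dendritic markers 6 were tested, 5 of them with a positive difference, and Clec9a and Xcr1 were on no array well above background. Among them Cd68 differed by 0.51 (SE 0.14) with no overlap, on 3 WT values, where 5.10% of all genes were higher without overlap. The others overlapped and ran from -0.10 (SE 0.38) for Cd14 to 0.80 (SE 0.67) for Lyz2. Of 6 B cell markers 2 were tested, Cd79b at 0.53 (SE 0.24) and Cd79a at 0.48 (SE 0.30), and 3 were not well above background on any array. None of these passed the threshold. These are bulk RNA values, in which fewer cells of a type and less RNA per cell cannot be told apart. The part of these markers in the results was not tested.

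Probe sequences are shown for Rasgrp1, Rasgrp2, Sos1 and Mapk3. They are written 5′ to 3′ as deposited, in lower case with no part marked. Both probes of Rasgrp2 and the dimmer probe of Mapk3 are given over all 60 bases, and the others by their first 30.
Rasgrp1 A_55_P1969650, first 30 bases: ctgaccacttgtgaaattgtctaaagatgt
Rasgrp1 A_55_P2110086, first 30 bases: acatacccttcacccctgatcatcattaga
Rasgrp2 A_55_P2143219: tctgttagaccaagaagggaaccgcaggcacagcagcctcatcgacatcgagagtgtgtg
Rasgrp2 A_55_P2143233: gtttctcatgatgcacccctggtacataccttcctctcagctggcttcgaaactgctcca
Sos1 A_52_P341339, first 30 bases: taccttatatagcctataagtgtgttattt
Mapk3 A_52_P243249, first 30 bases: tgtctttatctacccttgctagccccggct
Mapk3 A_55_P2121662: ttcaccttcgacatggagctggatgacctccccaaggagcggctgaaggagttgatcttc
Positions given below come from the array annotation, on mm9, and were not placed in exons or introns here.

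RNA of the Ras and ERK genes differed little between the arrays labelled Lck-/- and WT. Values are log2 signal relative to the 75th percentile of the array, and a difference is Lck-/- minus WT. Of the 6 genes, 5 had a positive difference and 1, Nras, a negative one. Differences ran from -0.08 to 0.30 with a median of 0.15. Over all genes the median difference was 0.04, and 57.6% were positive. None of the 6 passed the limma fit across all genes at an adjusted p of 0.05, nor at an unadjusted p of 0.05. Of all 14837 genes, 0% passed in either direction after adjustment and 7.12% at the unadjusted threshold. The groups overlapped for all 6 genes, while they did not overlap for 7.25% of all genes. The plot of probe signal by array shows these values.

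**Figure D1:**
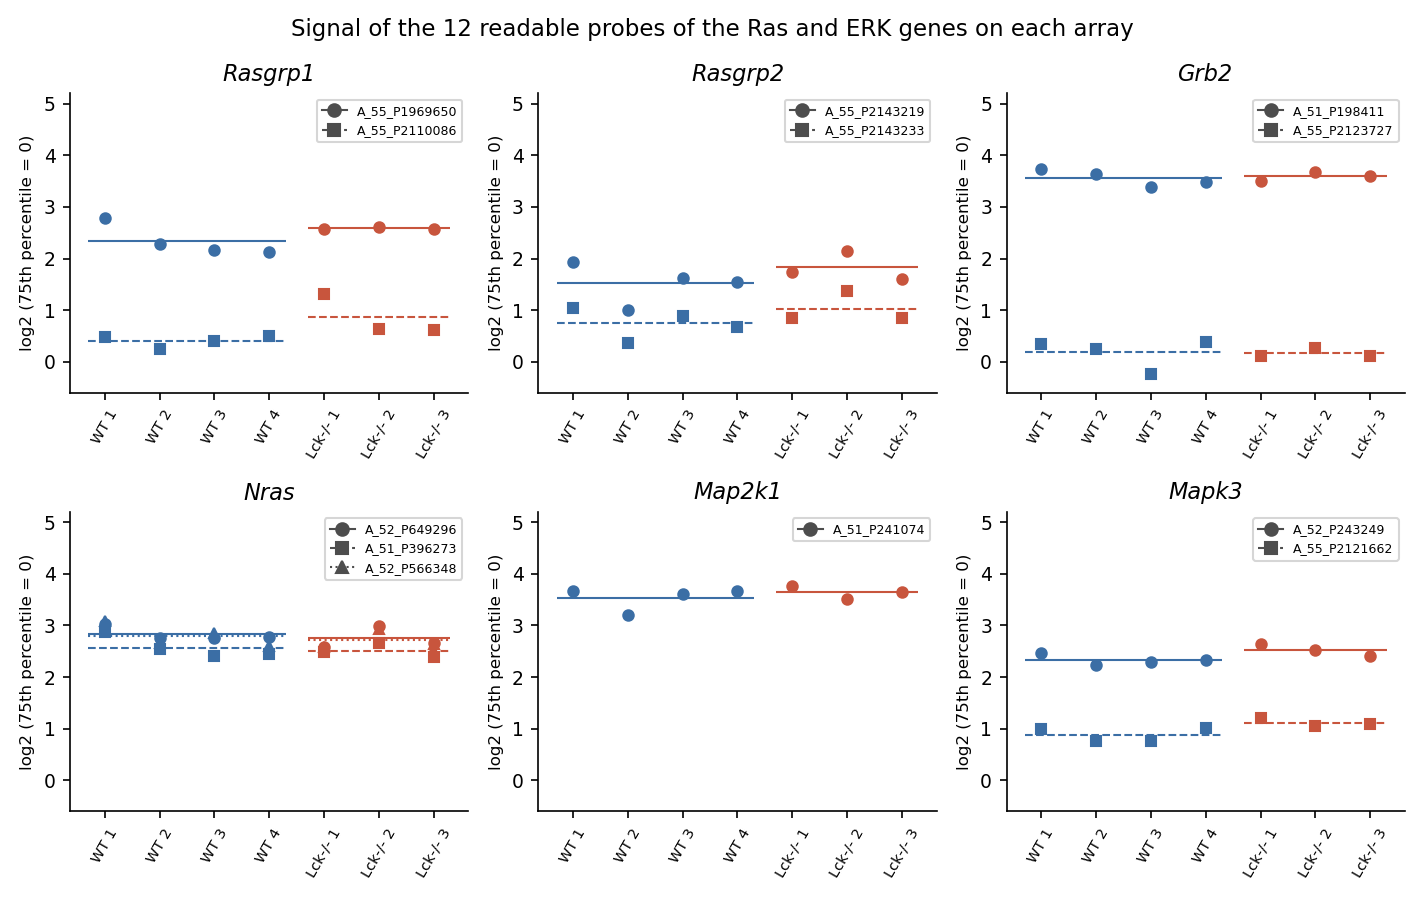
Log2 signal relative to the 75th percentile of each array (vertical axis) on the 4 arrays labelled WT (blue) and the 3 labelled Lck-/- (red), for the 12 probes of 6 genes that were well above background. Marker shapes are different probes of a gene, lines are group means, and heights of different probes are not comparable. Only the lower Rasgrp1 probe and the lower Mapk3 probe have all 3 red points above all 4 blue ones.

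Rasgrp1 encodes the diacylglycerol-responsive exchange factor that loads Ras in T cells. Its brighter probe, A_55_P1969650 at chr2:117105803-117105862 on the minus strand, read 2.79, 2.28, 2.16 and 2.14 on WT 1 to WT 4 and 2.57, 2.61 and 2.57 on Lck-/- 1 to Lck-/- 3. The array labelled WT 1 was the highest of all, and the other 3 WT arrays were below every Lck-/- array. The means were 2.34 ± 0.31 (SD, n = 4) and 2.58 ± 0.02 (SD, n = 3). They differed by 0.24 (SE 0.18, limma adjusted p = 0.851). Its 95% interval, -0.18 to 0.67, corresponds to 0.881-fold to 1.59-fold. Without WT 1 the difference was 0.39, and without WT 4 and Lck-/- 1 together it was 0.18. None of these passed the threshold.

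The dimmer Rasgrp1 probe gave a different pattern across arrays. A_55_P2110086 lies at chr2:117123829-117123888, is assigned by the files to the transcript ENSMUST00000110898 and not to the RefSeq transcript NM_011246 of the brighter probe, and shares the minus strand with it. It read 0.48, 0.25, 0.41 and 0.50 on WT 1 to WT 4 and 1.32, 0.64 and 0.62 on Lck-/- 1 to Lck-/- 3. The groups did not overlap, and the array labelled Lck-/- 1 stood above the rest. In the fit of every probe its difference was 0.45 (SE 0.20, limma adjusted p = 0.728). It was 0.22 without Lck-/- 1 and 0.25 without WT 4 and Lck-/- 1 together. The groups stayed apart with all 5 ways of scaling the arrays. Over the 7 arrays the probes of Rasgrp1 correlated at 0.39, the lowest value among the genes with several readable probes. Lck-/- 1 was also the array with the most spots well above background, whose part in this value was not tested.

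Rasgrp2, a calcium-responsive exchange factor known chiefly for loading Rap1, varied most between arrays. A_55_P2143219 at chr19:6403507-6403563 on the plus strand read 1.92, 1.01, 1.63 and 1.55 on WT 1 to WT 4 and 1.74, 2.15 and 1.61 on Lck-/- 1 to Lck-/- 3. The lowest value was on WT 2 and the highest on Lck-/- 2. The means were 1.53 ± 0.38 (SD, n = 4) and 1.83 ± 0.28 (SD, n = 3). They differed by 0.30 (SE 0.24, limma adjusted p = 0.853, 95% interval -0.25 to 0.86). This shrank to 0.13 without WT 2 and to 0.15 when Lck-/- 2 was left out, and was 0.36 without WT 4 and Lck-/- 1 together. The other probe, A_55_P2143233 at chr19:6402512-6402571, ran from 0.36 on WT 2 to 1.38 on Lck-/- 2. Both probes thus placed the same arrays at the ends, they correlated at 0.97 over the 7 arrays, and the differences were 0.30 and 0.28. Without WT 4 and Lck-/- 1 together the dimmer probe differed by 0.35. The spread within groups of the brighter probe, 0.34, lay at the 70.9th percentile of all genes.

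Sos1 and Grb2 form the adaptor route. Sos1, a Ras exchange factor bound by Grb2, has 1 probe, A_52_P341339 at chr17:80793312-80793371 on the minus strand. It was not well above background on any of the 7 arrays, so no level, fold or test is given for Sos1. Its relative Sos2 was read on every array, at 1.13 ± 0.15 (SD, n = 4) and 0.97 ± 0.17 (SD, n = 3). These differed by -0.15 (SE 0.15, limma adjusted p = 0.894), or -0.12 without WT 4 and Lck-/- 1 together.

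Grb2, the SH2 and SH3 domain adaptor, had the smallest difference of the 6 genes. A_51_P198411 on chromosome 11, from 115505444 to 115505488 on the minus strand, read 3.73, 3.64, 3.39 and 3.48 on WT 1 to WT 4 and 3.50, 3.67 and 3.61 on Lck-/- 1 to Lck-/- 3. The Lck-/- values lay inside the WT range. The difference was 0.03 (SE 0.14, limma adjusted p = 0.990), with a 95% interval of 0.815-fold to 1.28-fold at this scaling. With the median as reference it was -0.18 (SE 0.24). The dimmer probe, A_55_P2123727 at chr11:115506057-115506116, differed by -0.02 (SE 0.19). It ran from -0.24 on WT 3 to 0.38 on WT 4, again with all Lck-/- arrays inside the WT range. Without WT 4 and Lck-/- 1 together the brighter probe differed by 0.05 and the dimmer by 0.07.

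Nras encodes one of the classical Ras GTPases and was the only gene of the 6 with a negative difference. A_52_P649296 at chr3:102868451-102868510 on the plus strand read 3.02, 2.75, 2.76 and 2.78 on WT 1 to WT 4 and 2.58, 3.00 and 2.67 on Lck-/- 1 to Lck-/- 3. WT 1 and Lck-/- 2 were the high arrays, 1 from each group. The difference was -0.08 (SE 0.16, limma adjusted p = 0.967, 95% interval -0.44 to 0.28), and -0.01 without WT 4 and Lck-/- 1 together. Leaving out WT 1 gave -0.02 and Lck-/- 3 gave -0.04. Lck-/- 2 had the strongest pull, with -0.21 when it was left out, and the sign turned, to 0.01, when Lck-/- 1 was. The other probes of Nras differed by -0.06 and -0.08, and the 3 probes correlated at 0.79 to 0.87 over the arrays. Without WT 4 and Lck-/- 1 together these were -0.09 and -0.08. The relative Hras differed by -0.13 (SE 0.22), did not pass the threshold, and turned to 0.10 (SE 0.19) when its probes were averaged and to 0.01 without Lck-/- 3. It was -0.09 without WT 4 and Lck-/- 1 together.

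Map2k1 encodes the ERK kinase MEK1. Its single probe, A_51_P241074 at chr9:64034232-64034291 on the minus strand, read 3.67, 3.20, 3.62 and 3.68 on WT 1 to WT 4 and 3.77, 3.52 and 3.64 on Lck-/- 1 to Lck-/- 3. Only WT 2 stood below the remaining 6 arrays. The difference was 0.10 (SE 0.16, limma adjusted p = 0.957, 95% interval -0.28 to 0.48). Leaving out WT 2 took it to -0.01, Lck-/- 1 to 0.04, Lck-/- 2 to 0.17, and WT 4 with Lck-/- 1 to 0.09. Map2k2, which encodes MEK2, differed by 0.05 (SE 0.17), or 0.15 without WT 4 and Lck-/- 1 together.

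Mapk3 encodes ERK1, the last kinase of the relay. A_52_P243249 at chr7:133908973-133909032 on the plus strand read 2.47, 2.24, 2.29 and 2.34 on WT 1 to WT 4 and 2.65, 2.52 and 2.40 on Lck-/- 1 to Lck-/- 3. Lck-/- 1 and Lck-/- 2 were above every WT array, and Lck-/- 3 was below WT 1. The means were 2.33 ± 0.10 (SD, n = 4) and 2.52 ± 0.12 (SD, n = 3). They differed by 0.19 (SE 0.13, limma adjusted p = 0.83, 95% interval -0.12 to 0.50). It was 0.13 without WT 4 and Lck-/- 1 together.

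The dimmer probe of Mapk3, A_55_P2121662 at chr7:133908255-133908314, gave a like difference. It read 1.00, 0.76, 0.76 and 1.02 on WT 1 to WT 4 and 1.21, 1.05 and 1.09 on Lck-/- 1 to Lck-/- 3. These groups did not overlap, though WT 4 and Lck-/- 2 were close together. Its difference in the fit of every probe was 0.23 (SE 0.14, limma adjusted p = 0.811), and was 0.23 without WT 4 and Lck-/- 1 together. Over the arrays the probes of Mapk3 correlated at 0.87. With the array median in place of the 75th percentile the differences of the 2 probes were -0.01 and 0.03 and the groups overlapped for both. The groups overlapped for both probes in the deposited table too, and for neither with quantile normalization, with or without normexp. Over the 12 probes, the groups did not overlap for 2, both higher, or 16.7%, where 5.80% of all probes were higher without overlap. These 2 probes share the arrays and each belongs to a gene whose brighter probe overlapped.

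**Figure D2:**
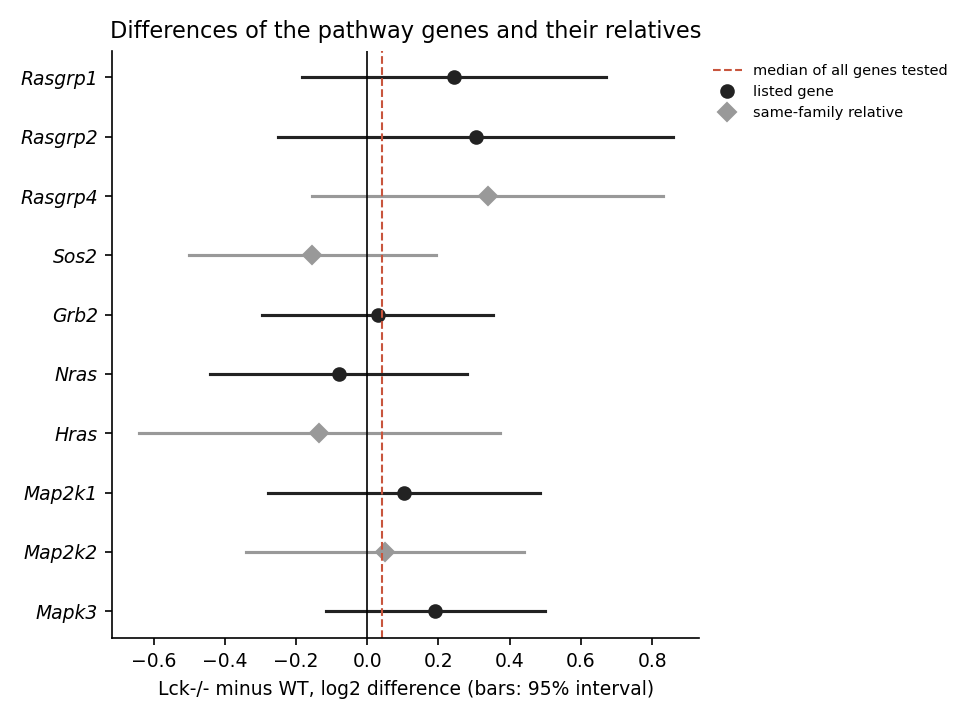
Lck-/- minus WT log2 differences (horizontal axis) with 95% intervals from the limma fit, for the 6 listed genes that could be read (black circles) and 4 relatives of the same families (grey diamonds). Every interval crosses 0, and the dashed line marks the median of all genes tested, 0.04.

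The direction of these small differences depends on how the arrays are scaled. The 75th percentile lay 4.16 to 4.37 above the median, on the log2 scale, on 6 arrays and 3.72 above it on Lck-/- 1. With the median as reference the median difference of all genes moved by -0.20. Rasgrp1 and Rasgrp2 then differed by 0.04 and 0.10, and Grb2, Map2k1 and Mapk3 turned to -0.18, -0.10 and -0.01. A change of reference moves all genes with a value on every array by the same amount, so the order of the genes stays as it was. Relative to the median of all genes, 4 of the 6 genes stood higher, and Grb2 and Nras lower. With quantile normalization, with or without normexp, 5 of 6 did, Grb2 among them.

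By array, the 6 genes differed in which arrays were high. On WT 1 all 6 were above their WT means, and on WT 2 5 of 6 were below. The median deviation from the WT mean was 0.18 on WT 1, -0.09 on WT 2, -0.06 on WT 3 and -0.02 on WT 4. It was 0.22, 0.18 and 0.08 on Lck-/- 1 to Lck-/- 3. Over all genes the median deviation was 0.07, 0.02, -0.15 and 0.05 on WT 1 to WT 4. On Lck-/- 1 to Lck-/- 3 that of all genes was 0.03, 0.09 and -0.01. Correlations between the genes over the 7 arrays ran from -0.34 for Grb2 with Map2k1 to 0.73 for Rasgrp1 with Grb2. They describe 7 points that share array, scaling and labelled group.

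The genes most like each member were taken as the 3 highest Pearson correlations over the 7 arrays among 12299 genes read on every array. Rasgrp1 was followed most closely by Sh2d3c, an SH2 domain adaptor gene, at 0.995, then Acaa1b at 0.98 and Fam240a at 0.97. For Rasgrp2 they were Zfp512b, Snapc1 and Trmu, at 0.976, 0.972 and 0.970. Grb2 ran with Cmah, Fam78a and Zbtb22, at 0.994, 0.983 and 0.975. Nras ran with Polr2d, an RNA polymerase II subunit gene, at 0.9945, then Eif4g2 and Erlin2 at 0.989 and 0.982. Map2k1 was nearest to Adgrl1, Atxn2l and Ccdc142, at 0.975, 0.973 and 0.973. Mapk3 was nearest to Unc13d, a gene of granule exocytosis, at 0.993, then Ndufb7 and Fdxr at 0.982 and 0.9805. The most opposite gene to Map2k1 was Fos, at -0.96. For Rasgrp1, Rasgrp2, Grb2, Nras and Mapk3 they were Xpnpep3, Smc5, Kctd15, Ptchd3 and Samd8, at -0.92 to -0.98. Values this high were picked as extremes of many genes over 7 arrays, and 0 of the members is among another's 3 nearest.

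The rest of the pathway was read from a list of 50 other genes, of which 46 were tested. Of these, 30 had positive and 16 negative differences. Their median was 0.05 against 0.04 for all genes, or 0.13 against 0.05 without WT 4 and Lck-/- 1 together. None passed the limma fit across all genes in either direction, and 1 of the 46, Lat, lay below an unadjusted p of 0.05, where 7.12% of all genes did. By role, the median was 0.15 for 10 adaptors and activators, 0.08 for 5 GTPases, 0.17 for 10 GTPase-activating proteins and brakes, -0.05 for 6 kinases, 0.07 for 7 scaffolds and modulators and 0.02 for 8 kinases and factors below ERK. The kinases lay in the narrowest range. Among them Braf and Araf, which act above MEK, differed by -0.10 (SE 0.14) and -0.01 (SE 0.17), and by 0.01 and 0.07 without WT 4 and Lck-/- 1 together. Among the exchange factors, Rasgrp4 differed by 0.34 (SE 0.21), or 0.44 without those 2 arrays, and Rasgrp3 was not tested, since its probes did not pass the background filter. The groups did not overlap for 2 of the 46, both higher, where 5.10% of all genes were higher without overlap. They were the Ras GTPase-activating proteins Rasa1, at 0.29 (SE 0.14), and Rasal3, at 0.36 (SE 0.19), which differed by 0.23 and 0.47 without the 2 arrays.

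**Figure D3:**
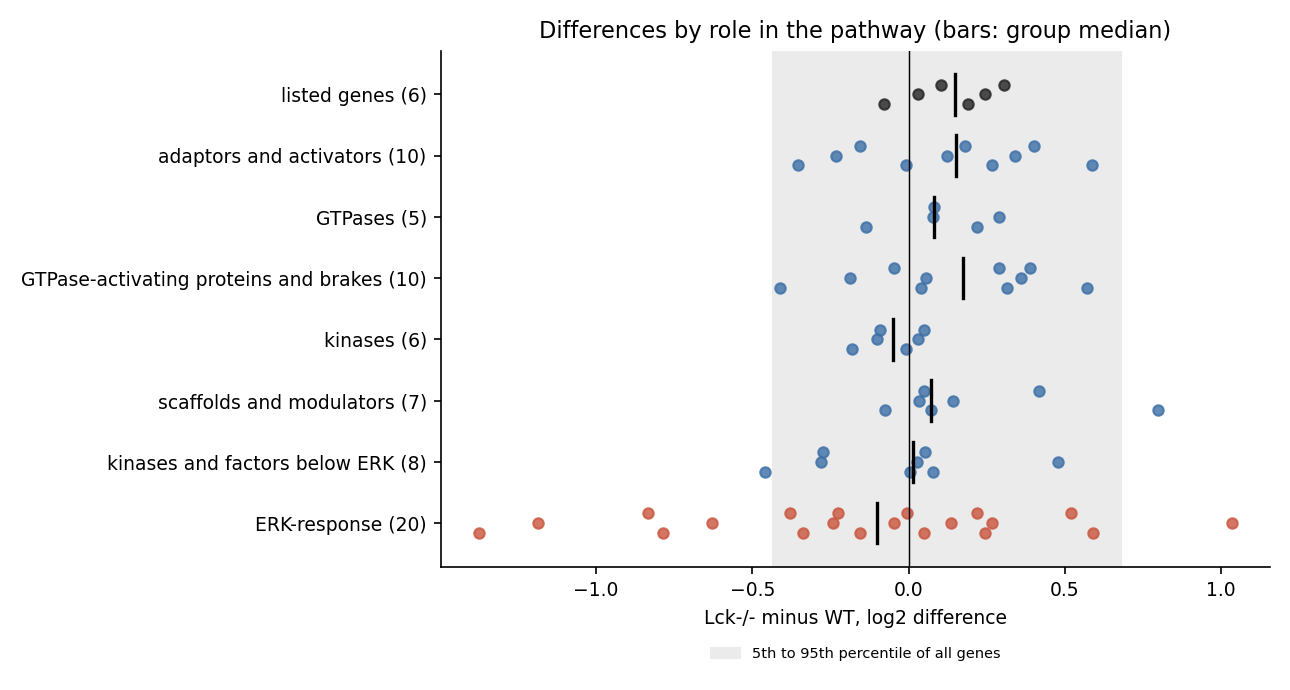
Lck-/- minus WT log2 differences (horizontal axis) of the 6 listed genes (black), 46 other pathway genes by role (blue) and 20 ERK-response genes (red), 1 point a gene, with group medians as bars. The grey band spans the 5th to 95th percentile of all genes tested, -0.43 to 0.68, which holds all 6 listed genes, while 6 of 20 ERK-response genes lie outside.

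The 3 pathway genes with the smallest p-values were Lat, Spred1 and Ksr2. Lat, the membrane adaptor that both routes to Ras start from, read 5.94, 5.53, 5.45 and 5.86 on WT 1 to WT 4 and 6.56, 6.39 and 5.89 on Lck-/- 1 to Lck-/- 3. Lck-/- 3 lay just below WT 1, so the groups overlapped. The difference was 0.59 (SE 0.21, limma adjusted p = 0.653), 0.38 with the median as reference and 0.50 without WT 4 and Lck-/- 1 together. Spred1, a Sprouty-related inhibitor of Ras signalling, differed by -0.41 (SE 0.18), or -0.43 without those arrays. Ksr2, a scaffold of the ERK relay, differed by 0.80 (SE 0.36) on 3 WT values, since the spot on WT 3 carried an outlier mark and was left out. It was 0.70 without WT 4 and Lck-/- 1 together. Over the alternatives tried the Ksr2 difference ran from 0.08 to 1.34, the latter with the file number as a block. The 0.08 (SE 0.18) came with only probes well above background on all arrays. That filter removed the Ksr2 probe described above, so another probe of the gene was read. The mean of the gene's probes differed by 0.61 (SE 0.28). No alternative brought Lat, Spred1 or Ksr2 past the threshold.

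Genes that ERK signalling is known to induce were read from a list of their own. Of 22 listed, 20 were tested: 8 had positive and 12 negative differences, with a median of -0.10, or 0.02 without WT 4 and Lck-/- 1 together. None passed over all genes, and at an unadjusted p of 0.05 there were 3 lower, Dusp4, Etv5 and Etv4, and 1 higher, Ier3. Of all genes 2.19% were lower and 4.93% higher at that threshold, or 325 and 732 genes. That split depends on the scaling: it was 733 lower and 209 higher with the median as reference, 472 and 597 with quantile normalization, 490 and 604 with normexp, and 628 and 578 in the deposited table. The groups did not overlap for 3 of 20, all lower (Dusp4, Dusp6 and Etv5), where 2.14% of all genes were lower without overlap. Dusp4 was already known as a gene with a small p-value in these data when the list was written, so these counts are not independent evidence of a direction. Values lay on both sides of 0: Dusp6 differed by -0.83 (SE 0.38) and Spry1 by -0.63 (SE 0.28), while Dusp5 differed by 0.59 (SE 0.37) and Dusp2 by -0.01 (SE 0.26). Without WT 4 and Lck-/- 1 together these were -0.88, -0.60, 1.05 and 0.23.

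Dusp4, an ERK phosphatase gene induced by ERK, read 0.81, 0.48, 0.87 and 0.48 on WT 1 to WT 4 and -0.20, -0.65 and -1.29 on Lck-/- 1 to Lck-/- 3. Every Lck-/- array was below every WT array. The difference was -1.37 (SE 0.26, limma adjusted p = 0.585). Etv5, an ETS transcription factor gene, read 0.28, 0.34, 0.26 and -0.58 on the WT arrays and -0.70, -1.51 and -1.13 on the Lck-/- arrays, with WT 4 the lowest of its group. Its difference was -1.19 (SE 0.28, limma adjusted p = 0.587). Without WT 4 and Lck-/- 1 together it was -1.61 (limma adjusted p = 0.0403), the only alternative in which it passed, and over all alternatives its adjusted p ran from 0.0403 to 0.999. Etv4, its close relative, differed by -0.79 (SE 0.24), and WT 4 lay below Lck-/- 1. With those 2 arrays left out, Dusp4 and Etv4 differed by -1.69 and -1.16, with limma adjusted p-values of 0.0681 and 0.0787.

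**Figure D4:**
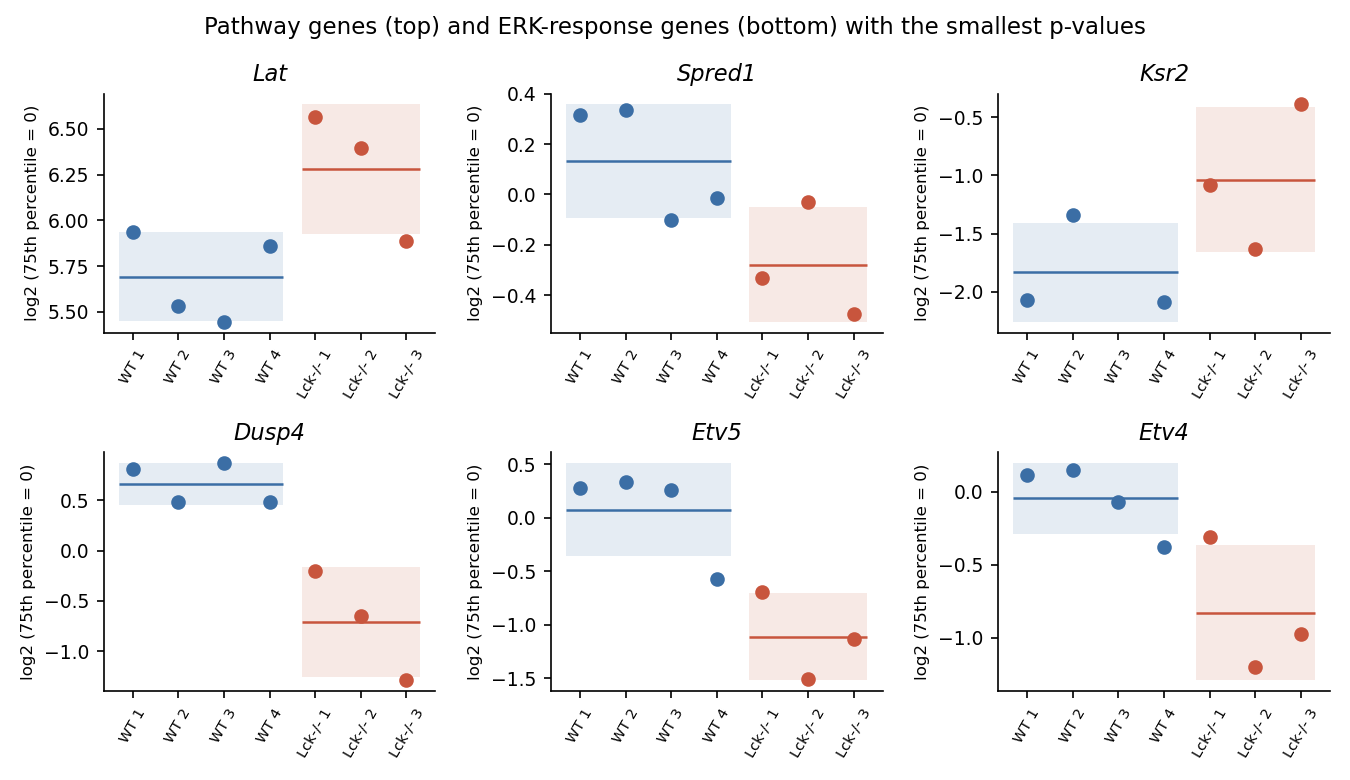
Log2 signal relative to the 75th percentile of each array (vertical axis) on the 4 arrays labelled WT (blue) and 3 labelled Lck-/- (red) for Lat, Spred1 and Ksr2 of the pathway (top) and Dusp4, Etv5 and Etv4 of the ERK-response list (bottom). Lines are group means and shading 1 SD; the groups are apart for Dusp4 and Etv5 and overlap for the other 4 genes.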

How the data were processed

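RNA of 7 samples was hybridised to 1-colour arrays of 62976 features. Per the file headers, the spot intensity deposited by the authors came from Agilent Feature Extraction 10.7.3.1, with spatial and multiplicative detrending and an annotation on mm9. The authors' deposited table holds log2 values of unstated normalization, centring and scale factor; it correlated at 0.997 to 0.9996 with log2 mean spot signal and was used only as an alternative. Its column medians ran from 6.57 to 6.61. The submitters' processing notes name limma.

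The processed signal was taken as log2 minus each array's 75th percentile. Outlier-flagged spots were left out, spots of a probe averaged, and probes kept when well above background on at least 3 of 7 arrays. Of 55681 probes, 27235 were named by accession, 3581 by symbol and 565 by synonym through a RefSeq table (GRCm38.p6, names only), 1799 kept the file's name, and 22501 without a gene symbol were left out. Each gene took its brightest passing probe by mean over all arrays; 675 of 14837 genes lacked a value. Groups were compared with limma 3.58.1 in R 4.3.3 (two-sided, Benjamini-Hochberg, threshold 0.05), tested on simulated data. The number of arrays limits the precision.

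The members and lists were chosen with earlier results of these data known. Named genes are the members, their family relatives, the 3 smallest p-values of each list and the 3 nearest and 1 most opposite gene per member; any list gene could be named. Some list genes are counted but not reported singly here. Alternatives were 4 other scalings or sources, 2 background filters, 2 treatments of probes, 3 blocks, and leaving out each array or the 2 doubted ones. Leaving out the 2 doubted arrays in the fit of every probe was added after seeing the data.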

Additional observations from a re-analysis of the deposited data

Results flagged for a closer look

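In 4 of 23 genes or probes examined, 1 of the 4 arrays labelled WT lay far from its group. Its gap was most of the group's range. Chance alone would mark about 1 in 20 independent items. These items share the arrays, and some are probes of the same gene, so the count cannot be set against that share. For Nras probe A_52_P649296 the array was WT 1, at 3.02 against 2.75 to 2.78, a gap of 0.885 of the range. The other Nras probes were not marked, with gaps of 0.696 and 0.483. For Map2k1 probe A_51_P241074 it was WT 2, at 3.20 against 3.62 to 3.68, a gap of 0.876. For Hras it was WT 3, at 3.69 against 4.30 to 4.34, a gap of 0.949. For Etv5 it was WT 4, at -0.58 against 0.26 to 0.34, a gap of 0.916. Each of the 4 WT arrays was the outlying one once.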

How the results depend on the processing

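Rasgrp1 and Rasgrp2 kept a positive difference under all 19 alternatives, at 0.04 to 0.39 and 0.10 to 0.44, and no alternative brought any of the 6 genes past the threshold (lowest adjusted p 0.657). With the median as reference the differences of Grb2, Map2k1 and Mapk3 turned to -0.18, -0.10 and -0.013, the median of the 6 genes to -0.057 and that of the other pathway genes to -0.15. With the deposited table Grb2 turned to -0.026. Leaving out 1 array at a time, differences ran from 0.18 to 0.39 for Rasgrp1, 0.13 to 0.44 for Rasgrp2, -0.027 to 0.085 for Grb2, -0.21 to 0.0053 for Nras, -0.0096 to 0.17 for Map2k1 and 0.13 to 0.25 for Mapk3. The count of genes called ran from 0 to 1 (Xist, without WT 1), the median of the 6 genes from 0.093 to 0.19, that of the other pathway genes from -0.01 to 0.11 and that of the ERK-response genes from -0.22 to -0.01. Deviations of arrays with the same title number correlated at 0.10, 0.06 and -0.03. File names number the Lck-/- arrays 1, 3 and 4 where titles say 1, 2 and 3. By file number the correlations were 0.10, -0.43 and 0.16, so the numbers were not taken as pairs. With the title number as a replicate block 1 gene was called, Klra15, and with the file number as a replicate block 1, Tshb, and Map2k1 turned to -0.0096; the pairing changed no call of the 6 genes. Without WT 4 and Lck-/- 1 together 57 genes were called, 36 higher and 21 lower; Etv5 was the only one of the pathway and ERK-response lists. The cause of these changes was not tested. Sos1 entered the fit only in the alternative without a background filter. Its difference there is not given, because its probe was not well above background on any array.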
